A study of Homo sapiens with 8 samples.

Results

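Ribosome footprints were set against input RNA, gene by gene, in MOLM-13 cells carrying a control hairpin (sh-NC). MOLM-13 is an established line of acute myeloid leukaemia, known for its MLL-AF9 fusion and for a FLT3 allele with an internal tandem duplication. The members are the protein-coding genes with a value above 0 in both sh-NC footprint libraries and in both sh-NC input RNA libraries, ranked by footprint over RNA. They number 4258, which is 21.5% of the 19847 protein-coding genes listed and 33.3% of the 12788 with RNA in both sh-NC libraries. The series has 8 libraries, of which 4 are sh-NC (2 of footprints, 2 of input RNA). The other 4, arranged alike, come from MOLM-13 cells with a hairpin against circMYBL2, a circular RNA of the MYBL2 gene (sh-circMYBL2), and are used here only beside the sh-NC values. No treatment or time point is labelled in either set. No label states that the libraries of a group were grown apart, so the spread between them may be technical.

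A ribosome covers a short stretch of the mRNA it is translating, and this stretch survives digestion by a nuclease. Sequencing the protected fragments shows where ribosomes are, and the ratio of footprints to RNA is the usual stand-in for how heavily an mRNA is loaded with ribosomes. The mRNAs of ribosomal proteins and of several translation factors start with a tract of pyrimidines, the 5′ terminal oligopyrimidine (TOP) motif. Through this tract the mTOR pathway and the protein LARP1 can hold them out of polysomes.

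The members were chosen by the measured values of all 4 sh-NC libraries, so the ranking below is a description and carries no test. The authors' footprint values are RPKM and their RNA values FPKM, and both tables were scaled separately, so only the order of the ratios has meaning, not their absolute size. A ratio is given as the log2 of the geometric mean footprint level over the geometric mean RNA level, set to 0 at the median of the members. Gene length is the same in both tables and cancels in the ratio. Both tables count reads over the whole gene, whereas footprints come mostly from coding sequence. The share of each gene that is coding was not tested.

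Depth separated the assays. Recovered reads on protein-coding genes were 33705 and 88682 in the sh-NC footprint libraries (libraries 1 and 2), against 10596986 and 11533623 in the input RNA. They made up 42.1% and 29.5% of the reads on genes in the footprints and 78.5% and 79.0% in the RNA. A member had a median of 5 and 10 footprint reads in libraries 1 and 2, and at most 370 and 615. Just inside the threshold stood 45 members with a single read in each library, where 1 read is worth a median of 2.21 RPKM in library 1 and 1.21 RPKM in library 2. Just outside it stood 727 genes with RNA and footprints in library 1 alone (median 3 reads) and 2807 in library 2 alone (median 4 reads, at most 72). A further 4996 genes had RNA but no footprint read in either library. Members held 92.9% and 82.4% of the protein-coding footprint reads of the pair of libraries and 74.4% and 74.5% of the RNA reads.

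The threshold shaped the ratio. A gene with little RNA could become a member only if it had many footprints for its RNA. In 6 bins of equal size by RNA level, the median ratio of the members went from 2.26 in the lowest bin (RNA of at most 2.92 FPKM) through 0.81, 0.08, -0.46 and -0.73 to -1.30 in the highest (at least 31.8 FPKM). In the lowest bin 11.8% of the genes with RNA in that range were members, and in the highest 81.1%. A measure that keeps genes at 0 is the share of protein-coding footprint reads divided by the share of RNA reads, called the share ratio below. Over all genes of the lowest RNA range it was 2.96 in library 1 and 2.999 in library 2, and over those of the highest range 0.619 and 0.577. The decline with RNA level was therefore present with the genes at 0 counted in, and it was smaller. To compare genes without this threshold, 1237 genes were called well covered, because their RNA predicted at least 10 reads in each sh-NC footprint library at the members' median ratio. Of these, 1049 were members, and 33 had no footprint read in either library. The well covered members had a median ratio of -1.31, and the well covered genes with zeros kept had -1.59, the mark that lists are set against below.

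**Figure D1:**
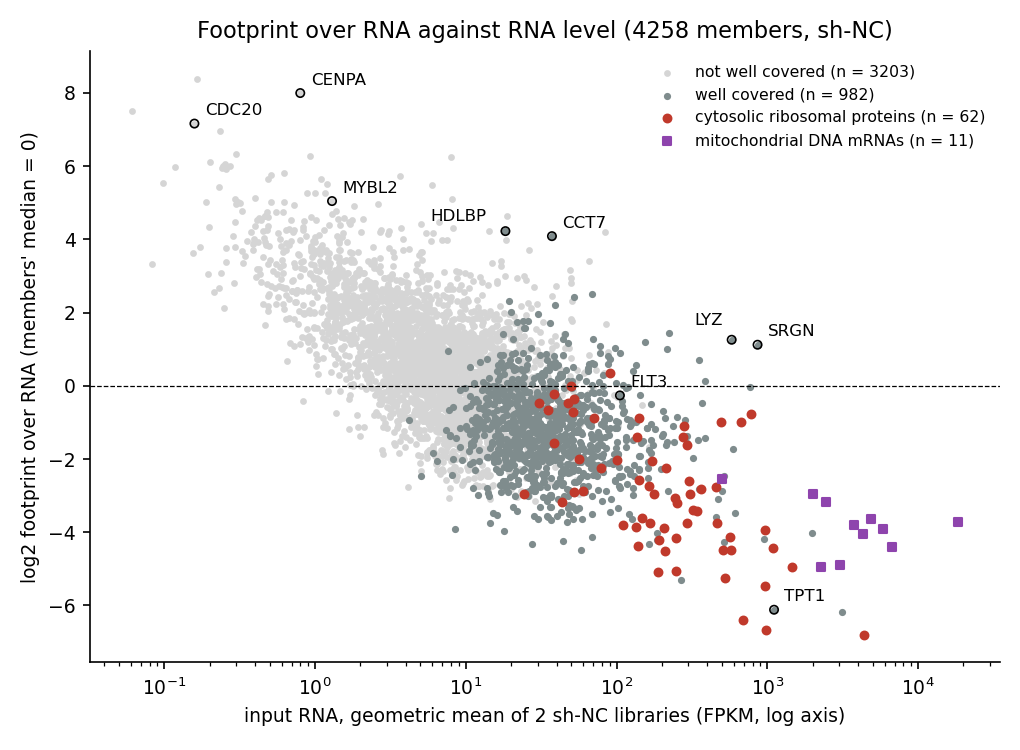
Each point is 1 of the 4258 members in sh-NC cells: input RNA as the geometric mean of 2 libraries (x, FPKM, log axis) against log2 footprint over RNA (y, members' median at 0, dashed). Ribosomal protein genes (red) and mRNAs of mitochondrial DNA (purple) lie low at high RNA levels, while CENPA at 7.997 and CDC20 at 7.16 lie high at RNA levels under 1 FPKM.

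Of the 12 lowest well covered members, 8 were genes of cytosolic ribosomal proteins. The starts of 5 of the 12 are shown from RefSeq (GRCh38.p14), because the TOP tract is read from the first transcribed bases. They are those of 2 ribosomal protein genes and of TPT1, NACA and TMSB4X. Each run gives 15 bases before the annotated start in lower case and the first 15 transcribed bases in capitals, on the strand of the gene.
RPS12 (chr6:132814554-132814583, plus strand): gcgtgcggatgaggcCTCTTTCCCTGCCGC
RPS24 (chr10:78033848-78033877, plus strand): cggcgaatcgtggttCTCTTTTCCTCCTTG
TPT1 (chr13:45341169-45341198, minus strand): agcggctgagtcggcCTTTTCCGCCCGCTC
NACA (chr12:56725285-56725314, minus strand): acgctctcgctcggtCTTTCTGCCGCCATC
TMSB4X (chrX:12975095-12975124, plus strand): cgcaccccgcccgacAACTCGGTGGTGGCC

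The longest run of C and T that touches the first 5 transcribed bases was 11 bases in RPS12, 16 in RPS24, 8 in TPT1, 7 in NACA and 3 in TMSB4X. The median over all 11785 starts in the table was 2, and 9.63% had a run of at least 7. A run is a description of these letters, not a site in use, and annotated starts can differ from those used in MOLM-13. Only 53 of the 79 ribosomal protein genes (67.1%) and 2468 of the 4258 members (58.0%) matched an entry, so a comparison of starts between groups of genes is void and none is given.

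RPS12, a protein of the small ribosomal subunit, had the lowest ratio of all members. Its RNA was 4488 and 4299.5 FPKM in the 2 sh-NC libraries, but its footprints were 31.7 and 42.1 RPKM, from 2 and 6 reads. The ratio was -6.80, with a 95% Poisson interval of -8.01 to -5.82 that covers the counting of footprints only. RPS24 followed with 967 and 979.5 FPKM of RNA, 17.4 and 4.42 RPKM of footprints (7 and 4 reads) and a ratio of -6.68 (interval -7.68 to -5.84). RPL32, of the large subunit, had 666 and 713 FPKM, 9.80 and 5.79 RPKM (3 and 4 reads) and -6.40 (-7.72 to -5.36). These intervals overlap, so the order within the lowest genes is not resolved at this depth. Libraries 1 and 2 gave -7.00 and -6.59 for RPS12 but -5.69 and -7.67 for RPS24.

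Ribosomal protein genes were low as a group, though not evenly. The 79 genes held 8.82% and 8.85% of the protein-coding RNA reads with sh-NC, against 2.57% and 1.58% of the footprint reads (95% Wilson intervals 2.41% to 2.75% and 1.502% to 1.67%). This is a share ratio of 0.291 in library 1 and 0.179 in library 2. Of the 79 genes, 62 were members, 12 were at 0 in 1 sh-NC footprint library and 5 at 0 in both. Among the 69 that were well covered, 55 lay below the median of well covered genes and 14 above it, with a median ratio of -3.74 against -1.59 for all well covered genes. RPL13, of the large subunit, was at -0.21, with -0.08 and -0.34 in libraries 1 and 2. RPS6 held more of the list's footprint reads than any other gene, 12.5%, and without it the share ratios were 0.256 and 0.164.

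Sequences shared with other genes bear on these values. The tables list 1126 rows named as pseudogenes of ribosomal protein genes, and short footprints can map to more than 1 copy. Such rows held 0.801% and 1.27% of the reads on ribosomal protein genes and their named pseudogenes in the footprints, and 1.52% and 1.45% in the RNA. How many reads were discarded for mapping to several copies was not tested, and the part of this in the low ratios was not tested. A small nucleolar RNA gene lay inside the span of 29 of the 79 genes. Whether reads from it were counted for the host gene was not tested. The share ratio was 0.242 and 0.159 for these 29 and 0.330 and 0.195 for the other 50, so the group was low in both.

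Other mRNAs with TOP tracts or roles in translation sat beside the ribosomal proteins. A list of 22 translation factors and other mRNAs classed as TOP had share ratios of 0.237 and 0.250, and 12 of its 17 well covered genes lay below the median of well covered genes and 5 above. TPT1, a small growth-related protein (TCTP), had 1099.9 and 1117 FPKM of RNA and 26.8 and 8.15 RPKM of footprints (16 and 11 reads), a ratio of -6.12. NACA, the alpha subunit of the nascent polypeptide-associated complex at the ribosome's exit, had 259 and 279.6 FPKM, 7.29 and 5.38 RPKM (6 and 10 reads) and -5.31. EEF1A1, the elongation factor that delivers aminoacyl-tRNA, had a ratio of -4.18 from 20 and 64 reads. EEF2, the factor that moves the ribosome along, was the highest well covered member of the list at 0.12, beside the filament protein VIM at 0.10. The RNA of EEF2 was 385 and 388 FPKM and its footprints were 275 and 551 RPKM (91 and 412 reads), and it alone held 35.0% of the list's footprint reads; without it the share ratios were 0.188 and 0.159. EEF1B2, the exchange factor of EEF1A1, had 448 and 439 FPKM of RNA and not a single sh-NC footprint read, so with a floor of 3 reads its ratio was under -4.43 in library 1 and under -5.60 in library 2. EEF1A1 has 39 named pseudogene rows, with 8.54% and 8.68% of the RNA reads of the gene and these rows together.

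The list of 28 initiation factors, which recruit the ribosome to the mRNA, had share ratios of 0.805 and 0.906, and 9 of its 19 well covered genes lay below the median of well covered genes and 10 above. Among the 18 well covered members of the list, EIF4A2, an RNA helicase, was the lowest at -4.01 (5 and 13 reads), and its gene holds 5 small nucleolar RNA genes. EIF3B, a scaffold subunit of the initiation factor eIF3, was the highest at 0.45 (22 and 56 reads). EIF1AX, a factor of start codon scanning, was well covered but had 0 and 1 footprint reads, so it is not a member.

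Low ratios were not limited to translation genes. TMSB4X, an actin-binding thymosin, had 3092 and 3188 FPKM of RNA and 85.6 and 19.0 RPKM of footprints (12 and 6 reads), a ratio of -6.17. For TMSB4X, 6 pseudogene rows hold 8.49% and 8.90% of the RNA reads of the gene and these rows. COX6C, a small subunit of cytochrome oxidase, had a ratio of -3.63 from 9 and 2 reads. Among 62 nuclear genes of oxidative phosphorylation the share ratios were 1.30 and 0.934, so the list lay above 1 in library 1 and below it in library 2.

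The mRNAs of mitochondrial DNA, which are translated by mitochondrial and not by cytosolic ribosomes, had the lowest share ratio of any list but the markers of other cells. These 13 genes held 7.49% and 7.30% of protein-coding RNA reads and 0.875% and 0.626% of footprint reads, a share ratio of 0.118 and 0.0846. All 12 well covered ones lay below the median of well covered genes. MT-ND2, a subunit of complex I, had 2316 and 2228 FPKM of RNA and 81.7 and 56.9 RPKM of footprints (7 and 11 reads), and its ratio was -4.95. MT-CYB, of complex III, had 309 and 203 RPKM of footprints (29 and 43 reads) and a ratio of -3.18. MT-ATP6 had 11351 and 11414 FPKM of RNA but 0 and 39.6 RPKM of footprints (0 and 5 reads), so it is not a member.

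Genes at 0 belong to this end of the ranking although the rule leaves them out. Of the 188 well covered genes that are not members, RPS18 had 1152 and 1073 FPKM of RNA with 0 and 11 footprint reads. RPL26 had 451 and 468 FPKM with 0 and 6 reads, and RPL31 had 338 and 358 FPKM with 0 and 5 reads. RPS27 had 313.5 and 298 FPKM and no read in either library, which puts its ratio under -2.87 and -4.05 at the floor of 3 reads. C6orf48 had 351 and 346 FPKM, also with no read in either. No position as a protein-coding gene was matched for C6orf48 in RefSeq, and whether its RNA codes for a protein was not tested. MT-ND3 had 2830.0 FPKM of RNA in library 1 and 2605 in library 2, with 0 and 19 reads.

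**Figure D2:**
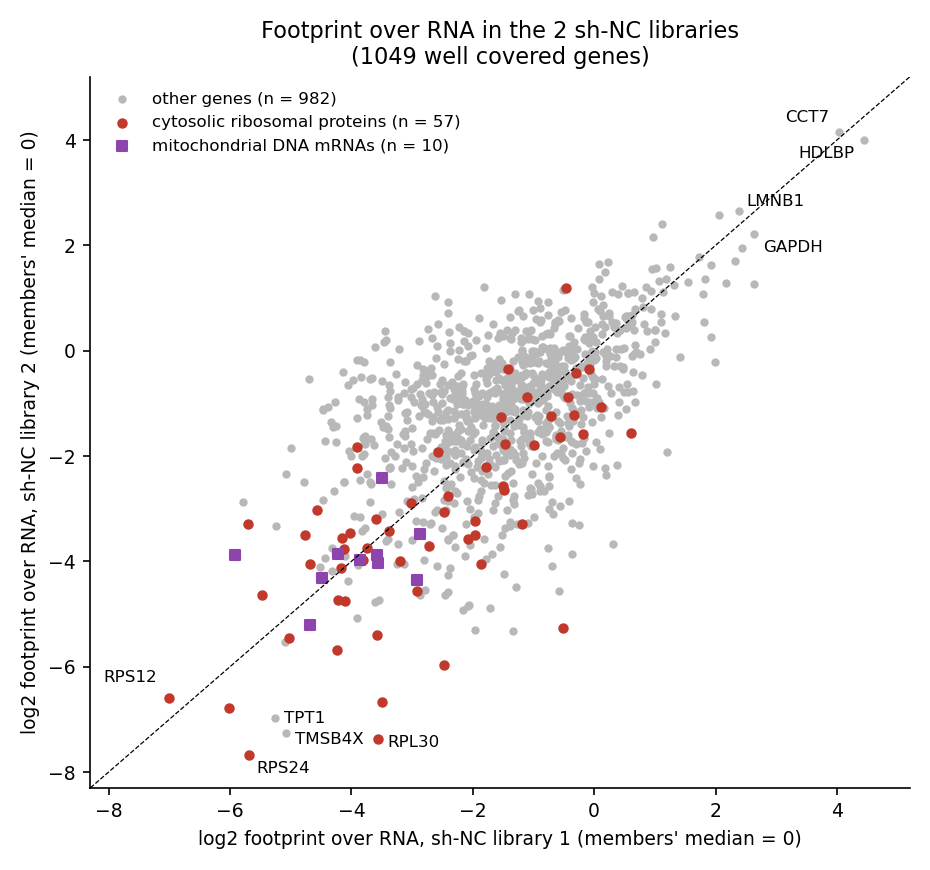
Log2 footprint over RNA of the 1049 well covered members in sh-NC footprint library 1 (x) and library 2 (y), both set to 0 at the members' median, with the line of equal values dashed. HDLBP and CCT7 stand at 4 or above in both libraries, and RPS12 stands below -6 in both, while RPL30 differs between the libraries (-3.56 and -7.37).

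The highest ratios among well covered members were those of HDLBP and CCT7, in both libraries. HDLBP (vigilin, an RNA-binding protein with many KH domains) had 17.96 and 18.7 FPKM of RNA and 369 and 272 RPKM of footprints, from 370 and 615 reads, the most of any member in either library. Its ratio was 4.23 (interval 4.13 to 4.32). CCT7, a subunit of the chaperonin TRiC that folds actin and tubulin, had 36.9 and 37.7 FPKM of RNA, 562 and 612 RPKM of footprints (166 and 408 reads) and a ratio of 4.09 (3.97 to 4.21). The libraries gave 4.45 and 4.005 for HDLBP and 4.03 and 4.15 for CCT7, so the order of the pair is not resolved. LMNB1, the B-type lamin of the nuclear envelope, followed at 2.51 (2.36 to 2.66) with 66.5 and 71.0 FPKM of RNA and 331 and 397 RPKM of footprints (99 and 268 reads). The gap between CCT7 and LMNB1 exceeded the difference between libraries for each of the 3 genes.

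A start of CCT7 and one of GAPDH, described next, are shown so that the letters of the highest genes with an entry can be seen too. HDLBP and LMNB1 have none. The GAPDH entry starts inside the gene, whose first annotated base on chromosome 12 is 6534517, so its letters are not those of the gene's outermost start. Capitals again mark the first 15 transcribed bases, counted from the start of each entry.
CCT7 (chr2:73234293-73234322, plus strand): tctattgcgcgaggcATTGTGGGTTGCTGG
GAPDH (chr12:6535249-6535278, plus strand): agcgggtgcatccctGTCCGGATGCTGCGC

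The longest runs of C and T at the starts shown were 2 bases for CCT7 and 3 for GAPDH. These are single examples and no comparison of high with low genes.

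The next genes had varied roles. GAPDH, a glycolytic dehydrogenase, had 53.6 and 50.7 FPKM of RNA and 298 and 224 RPKM of footprints (73 and 124 reads), a ratio of 2.42. ALDOA, the glycolytic aldolase, was at 1.95, with 172 RPKM in library 1 and 66.5 in library 2. COPS2, a subunit of the COP9 signalosome, was at 2.32 (46 and 149 reads). VPS36, of the ESCRT-II sorting complex, was at 2.19 (90 and 144 reads), and DNAJC7, a co-chaperone, at 2.02 (71 and 104 reads). TAF2 of the general transcription factor TFIID, PRRC2A, the splicing regulator PTBP1 and the lipid-transfer protein STARD7 closed the 12 highest at 1.78, 1.76, 1.75 and 1.72. PRRC2A gave 1.11 and 2.41 in libraries 1 and 2, so its place rested mostly on library 2. In all, 130 of the 1049 well covered members had a ratio above 0, and 86 of them were above 0 in both libraries.

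**Figure D3:**
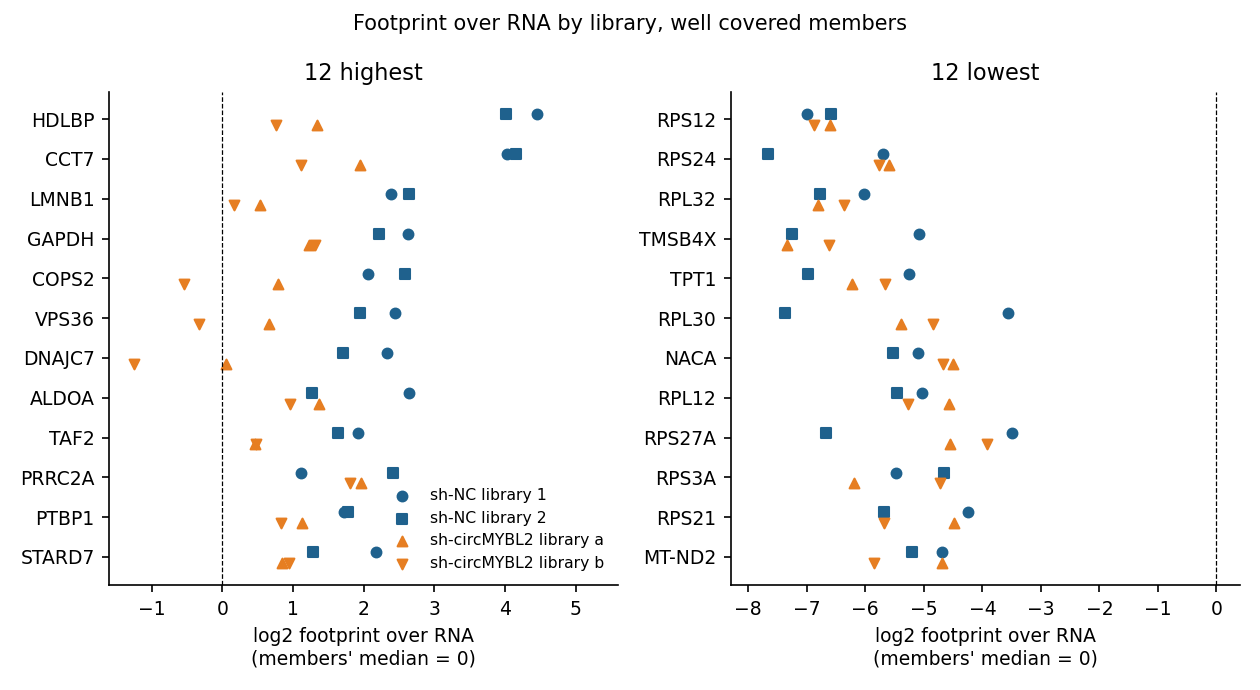
Log2 footprint over RNA (x) of the 12 highest and the 12 lowest well covered members. Each hairpin is set to 0 at its own median of members. The 2 sh-NC libraries are in blue, and the 2 sh-circMYBL2 libraries, which played no part in the ranking, in orange. The lowest genes are low in all 4 libraries, and for 10 of the 12 highest both sh-NC libraries lie above both of the others, the exceptions being ALDOA and PRRC2A. The genes were picked on sh-NC values, and the share of all well covered members that lie apart likewise was not counted.

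The agreement of the 2 libraries sets how far single genes can be read. Across the 1049 well covered members the ratios of libraries 1 and 2 correlated with r = 0.590 (genes of the same 2 footprint libraries over one RNA mean, so not independent points). The SD of the difference between the libraries was 1.33, whereas the counting of reads alone would give 0.786 and the 2 RNA libraries differed with an SD of 0.0579. For 603 of the 1049 the libraries lay within 1 of each other. As a rough guide, a difference between 2 genes of less than about 1.33 within a library is of the size seen between libraries. This SD pools all well covered members and is not that of the means of 2 libraries. Single genes varied widely around it, as with CCT7 (4.03 and 4.15) and RPL30 (-3.56 and -7.37).

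Folding proteins showed how much a list can owe to 1 gene. The 14 genes of TRiC and its partner prefoldin had share ratios of 2.79 and 2.46, but CCT7 held 59.1% of their footprint reads, and without it the share ratios were 1.28 and 1.04. CCT3, another TRiC subunit, was at 0.51 (23 and 49 reads), CCT2 at -1.69 (2 and 22 reads) and PFDN5 of prefoldin at -3.30 (4 and 1 reads). Genes of ER folding and export were above 1 in both libraries at 1.51 and 1.43, and 11 of 13 well covered ones lay above the median of well covered genes. CALR, the calcium-binding chaperone calreticulin, was at 0.996 with 502 and 316 RPKM of footprints (112 and 159 reads), P4HB, a protein disulphide isomerase, at 0.58 (79 and 185 reads), and HSP90B1 at -1.98 (22 and 86 reads). The list of cytosolic chaperones, which also holds the mitochondrial HSPA9, had share ratios of 0.944 and 1.15.

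Glycolytic enzymes were high as a list. The 20 genes had share ratios of 2.71 and 2.02, 15 were members, and all 6 well covered ones lay above the median of well covered genes. ENO1, the enolase with the most footprint reads of the list (85 and 168), had a ratio of -0.47 and LDHB, a lactate dehydrogenase, of -0.84. Without ENO1 and GAPDH, which together held 35.8% of the list's footprint reads, the share ratios were 3.02 and 2.31.

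Proteins of granules and lysosomes, the stores of myeloid cells, were among the most heavily covered. The 20 genes listed held 2.12% and 1.82% of the footprint reads and 0.483% and 0.465% of the RNA reads, which gives share ratios of 4.47 and 3.84. LYZ, the antibacterial enzyme lysozyme, had 604 and 557 FPKM of RNA and 1041 and 1582 RPKM of footprints (151 and 518 reads), a ratio of 1.26. SRGN, the proteoglycan serglycin that packs granules, had 881 and 842 FPKM, 1754 and 1713 RPKM (176 and 388 reads) and a ratio of 1.12. Without both genes, the share ratios were 5.37 and 3.72. LAMP2, a lysosomal membrane protein, was lower, at -1.59 (5 and 19 reads).

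These values also bear on the label of the line. Of 14 myeloid markers, 13 had RNA and 7 were members, and their share ratios were 2.84 and 3.53, with 71.6% of the reads in LYZ. Of 12 lymphoid markers, 10 were listed as protein-coding genes, so only these could be members. None of them and none of 12 erythroid markers was a member. The erythroid list had 0 and 0 footprint reads in libraries 1 and 2, and the lymphoid list 0 and 1. Of 12 markers of adherent cells 1 was a member, with 11 and 30 reads over the list.

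**Figure D4:**
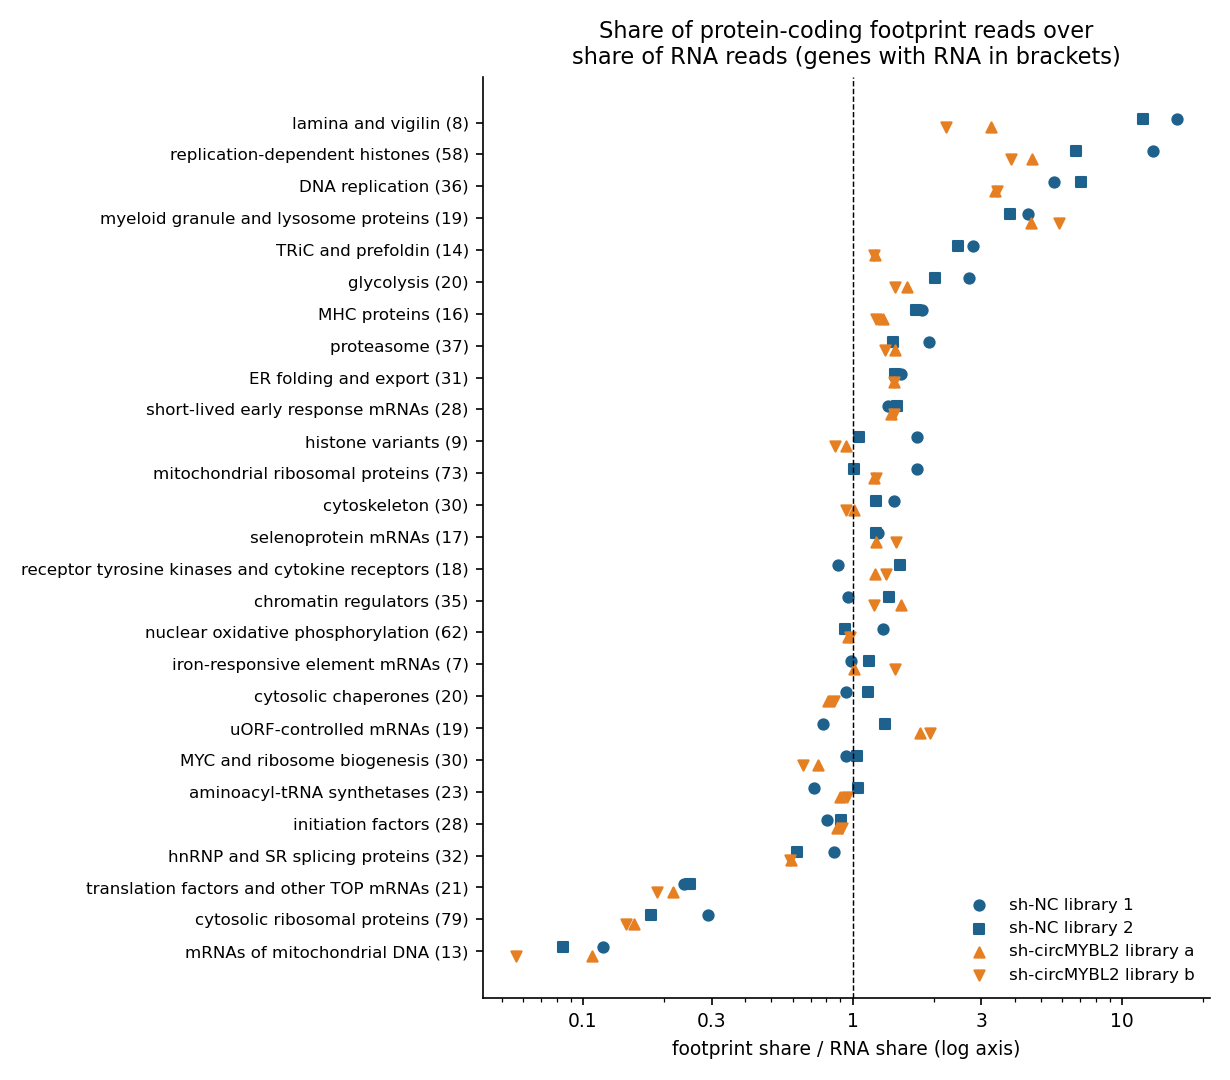
Share of protein-coding footprint reads over share of protein-coding RNA reads (x, log axis, 1 dashed) for each list of genes, zeros included, in the 2 sh-NC libraries (blue) and the 2 sh-circMYBL2 libraries (orange). Mitochondrial DNA mRNAs, ribosomal proteins and TOP mRNAs lie under 0.3 in all 4 libraries. The lamina and vigilin list falls farthest apart between the hairpins, but it was made around genes already known to be high. Nothing is therefore read from its gap. Once HDLBP and LMNB1, which hold most of its sh-NC footprints, are left out, libraries 1 and 2 give 3.39 and 3.76. Libraries a and b then give 3.55 and 2.51.

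The 5 highest ratios of all members came from genes with very little input RNA. CENPA, the histone variant that marks centromeres, had 0.910 and 0.701 FPKM of RNA and 215 and 166 RPKM of footprints (35 and 61 reads), a ratio of 7.997. CDC20, an activator of the anaphase-promoting complex, had 0.148 and 0.170 FPKM and 11.9 and 37.0 RPKM (2 and 14 reads), a ratio of 7.16. PKMYT1, a kinase that holds back entry into mitosis, had 0.0448 and 0.0828 FPKM, 12.1 and 8.56 RPKM (5 and 8 reads) and 7.496. C6orf223 was first of all members at 8.39 (8 and 78 reads), and FBXL6, an F-box protein, was at 6.97 (8 and 16 reads). For C6orf223 no position as a protein-coding gene was matched in RefSeq, and whether its RNA codes for a protein was not tested. MYBL2, a cell cycle transcription factor and the host gene of the circle, ranked 31 at 5.05, with 1.46 and 1.15 FPKM of RNA and 21.9 and 71.8 RPKM of footprints (5 and 37 reads). Reads of a circular RNA and of its host's shared exons cannot be told apart in these tables. None of these genes was well covered, and the threshold admits genes with so little RNA only where their ratio is high. Their sh-NC input RNA rested on few reads: 24 and 20 for CENPA, 4 and 5 for CDC20, 3 and 6 for PKMYT1. C6orf223 had 9 and 9 RNA reads, FBXL6 10 and 12, and MYBL2 54 and 46. The error from counting these RNA reads was not worked into the ratios.

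Histone and replication genes were high as lists with zeros included. The 65 replication-dependent histone genes, whose mRNAs end in a stem-loop in place of a poly(A) tail, held 0.105% and 0.104% of RNA reads and 1.36% and 0.703% of footprint reads, which gives share ratios of 13.0 and 6.72. Of the 58 with RNA, 35 were members, 11 were at 0 in 1 library and 12 in both. The 4 genes with the most footprint reads in the list are given, a choice made after the values were seen. HIST1H1B, a linker histone, had 65.6 and 65.1 FPKM of RNA and 625 and 657 RPKM of footprints (35 and 83 reads), a ratio of 3.41. HIST1H1E, another linker histone, was at 4.64 (40 and 41 reads), and HIST1H4E, a core histone, at 1.78 (19 and 46 reads). HIST1H3B, also a core histone, had 8.78 and 7.27 FPKM and 887 and 354 RPKM (30 and 27 reads), a ratio of 6.25. Histone genes are near-identical copies, so reads could be split between them or dropped, and whether tails were selected for is not given in the sources used here, beyond an RNA removal kit that the labels name for all libraries.

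DNA replication genes had share ratios of 5.57 and 7.05, with 0.108% of RNA reads in both libraries and 0.602% and 0.762% of footprint reads. Its 4 genes with the most footprint reads are given by the same choice. MCM4, a subunit of the replicative helicase, had 9.64 and 9.91 FPKM of RNA and 32.1 and 87.6 RPKM of footprints (18 and 111 reads), a ratio of 2.55. PCNA, the sliding clamp, had 87.5 and 82.5 FPKM and 306 and 212 RPKM (37 and 58 reads), a ratio of 1.70. MCM3 and MCM5, of the same helicase, were at 1.72 (11 and 78 reads) and 3.66 (8 and 41 reads). The list's genes had a median RNA level of 3.02 FPKM, and the part of the RNA level in these share ratios was not tested. All genes of the RNA range that holds this median, 2.93 to 5.804 FPKM, had share ratios of 1.82 and 1.84.

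Growth and regulatory genes had ratios on both sides of the members' median. FLT3, the receptor kinase of the line, ranked 2404 of 4258 at -0.26 (interval -0.57 to 0.03), with 102 and 109 FPKM of RNA and 76.0 and 86.8 RPKM of footprints (26 and 67 reads). Libraries 1 and 2 gave -0.36 and -0.17, so FLT3 lay near the members' median and above that of well covered members in both. PTBP1 had 22.1 and 21.9 FPKM of RNA and 67.1 and 69.7 RPKM of footprints (38 and 89 reads), and its ratio of 1.75 was alike in the libraries (1.72 and 1.77). MYC, the transcription factor, was at 0.59 (31 and 66 reads) and MYB at -0.92 (25 and 66 reads). NCL, the nucleolar protein nucleolin, was at -2.45 (40 and 140 reads), and FBL, the methyltransferase fibrillarin, at 0.74 (24 and 59 reads). The list of MYC and ribosome biogenesis genes had share ratios of 0.946 and 1.04, and the 32 splicing proteins of the hnRNP and SR families, all of them members, 0.851 and 0.621.

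mRNAs known for other kinds of translational control were described as lists too. mRNAs with upstream open reading frames had share ratios of 0.778 and 1.32, and those with iron-responsive elements 0.988 and 1.15. ATF4, the best-known of the former, had 0 and 4 footprint reads and is not a member. FTL, the ferritin light chain, was at -0.89, but its libraries gave -2.22 and 0.45 (3 and 43 reads). TFRC, the transferrin receptor, was at 0.08 (21 and 58 reads). Chromatin regulators, which have long coding sequences, had share ratios of 0.961 and 1.36, from CHD2 at -3.48 (1 and 7 reads) to KMT2D at 0.95 (14 and 86 reads).

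Length and small RNA genes inside the gene are features that the rule did not use. The choice of well covered genes did use length, because expected reads grow with RNA level and length. A short gene is well covered only with much RNA, so the lengths below cannot be read apart from that choice. The well covered genes were split by ratio into 5 bins of near-equal size, with genes at 0 in the lowest. The median length of their exons was 5989 bases in the lowest bin and 6933, 7465, 7296 and 6844 in the others. A small nucleolar RNA gene lay inside 12.2% of genes in the lowest bin, and inside 12.7%, 8.10%, 5.69% and 8.50% in the others. Without ribosomal protein genes the share in the lowest bin was 7.46%. A microRNA gene lay inside 7.59% of the lowest and 8.91% of the highest bin. Positions came from RefSeq and were found for 4223 of the 4258 members.

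The sh-circMYBL2 libraries, which the rule did not use, gave a second reading of the same ratio. Their RNA libraries are separate samples, so no control is shared. The sh-circMYBL2 ratios were set to 0 at their own median over the members above 0 in all 8 libraries. On that scale well covered members had a median of -0.82, against -1.31 on the sh-NC scale. A value that differs between the hairpins is therefore not a movement on one scale. Of the members, 4199 were above 0 in all 8 libraries, and these were 98.6% of the members and 47.5% of the 8841 genes that the same rule finds with sh-circMYBL2. Over 1048 well covered members the ratios of the hairpins, each from the mean of 2 footprint libraries, correlated with r = 0.771. Between single libraries r was 0.591 for the sh-NC pair and 0.923 for the deeper sh-circMYBL2 pair, each pair over one RNA mean. Single libraries of different hairpins gave r from 0.549 to 0.795, so the value of 0.771 is not to be set against those of the pairs. These points share gene length, sequence and library kit. The 100 highest well covered sh-NC genes had a median of 0.25 with sh-circMYBL2, and 96 of them lay above the median of all 1048, which was -0.82. The 100 lowest had a median of -3.28, and 94 of the 99 with a value lay below it. Ribosomal proteins had share ratios of 0.155 and 0.145 in the sh-circMYBL2 libraries a and b, mRNAs of mitochondrial DNA 0.108 and 0.0566, and TOP mRNAs 0.217 and 0.188. These lists lay under 0.3 in all 4 footprint libraries. The 12 highest well covered members, ranked on sh-NC values, were lower in both sh-circMYBL2 libraries than in both sh-NC libraries in 10 cases. Both ends were picked on sh-NC values, and how many of all well covered members lay apart likewise was not counted. Nothing is therefore read from such counts at either end. HDLBP gave 1.34 and 0.76, CCT7 1.94 and 1.11, and LMNB1 0.54 and 0.16 in libraries a and b. As means of a pair, each on its own scale, COPS2 had 2.32 with sh-NC and 0.12 with sh-circMYBL2. In the same order VPS36 had 2.19 and 0.16, and DNAJC7 2.02 and -0.60. PRRC2A, at 1.76 with sh-NC, had 1.88. Of the 12 lowest, 11 overlapped between the hairpins and 1 was lower with sh-NC. The RNA of HDLBP, CCT7 and LMNB1 moved less: over all 4 RNA libraries it ranged from 17.96 to 19.5 FPKM for HDLBP, from 36.9 to 38.8 FPKM for CCT7 and from 66.5 to 79.8 FPKM for LMNB1.

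The difference in footprint over RNA between the hairpins was tested as the interaction of hairpin and assay in limma, on log2(value + 1), with Benjamini-Hochberg adjustment over 8260 genes. At an adjusted p under 0.05, 32 of the 4089 members tested were called (0.783%), against 5.31% of all genes tested. Of the members, 12 were higher with sh-circMYBL2 (5.05% of all genes were) and 20 were lower (0.266% of all genes). The rule used the sh-NC values of this contrast, and 405 of the 417 genes called higher are not members, so nothing is read from these shares. The differences below are descriptions for the same reason, since genes ranked high or admitted on their sh-NC values are set against those values. The members lower with sh-circMYBL2 by smallest p were HDLBP, RPL37A, LMNB1, SCPEP1 and PDLIM1, with CCT7 also called. HDLBP differed by -3.04 (SE 0.39), LMNB1 by -2.06 (SE 0.31) and CCT7 by -2.45 (SE 0.42). The members higher with sh-circMYBL2 by smallest p were ELK4, PHF6, PLAGL2, ZHX1 and OPA1, each with at most 10 reads in a sh-NC library. The model pooled the spread of both assays, although footprint libraries differed far more than RNA libraries. With a separate spread for each assay, an alternative chosen after the data were seen, limma called 1 gene and no member (1029 genes had an unadjusted p under 0.05), and without any single RNA library it called none. Voom on the recovered reads called 53 members (2.12% of all genes were called), of which 18 were higher (1.63% of all genes) and 35 lower (0.484% of all genes). FLT3 differed by -0.23 (95% interval -0.96 to 0.49, adjusted p = 0.727), MYBL2 by -0.88 (-2.76 to 1.002, adjusted p = 0.614) and PTBP1 by -0.66 (-1.37 to 0.05, adjusted p = 0.290), none past the threshold.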

How the data were processed

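Footprints and input RNA of MOLM-13 cells were measured in 8 libraries, grouped by sample title. The submitters' processing notes name cutadapt, Bowtie, HISAT2, featureCounts, DESeq2 and hg38; no version, role or strand setting is given in the sources used here, so overlapping and antisense genes may share reads. All libraries were prepared with a kit that removes unwanted RNA, followed by one for small RNA, per the labels' protocols. The authors deposited footprint levels in RPKM and input RNA levels in FPKM. Both list the same 58302 genes, and all value columns were used.

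Values times gene length fell on multiples of what 1 read is worth in that library, so reads were recovered within a tolerance of 0.02 reads (98.2% to 99.1% of microRNA values above 0 came out whole). The step gives the total each library was scaled to, which was 82265 and 185632 in the sh-NC footprints; sh-NC library 2 had 300366 reads on genes, so this total is not the depth. Reads served for depth, shares, 95% Wilson and Poisson intervals and a floor of 3 reads, all of which cover counting error only. Reads without molecular identifiers are not independent molecules.

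Footprint over RNA used log2 values of genes above 0, with no test across the tables. The test between hairpins used limma 3.58.1 in R 4.3.3 (lmFit, eBayes with trend, two-sided, pseudocount 1, mean of at least 1 in each table, threshold 0.05); on this scale changes of low genes are understated. The code was also run on simulated data. Their spread was set in advance and not taken from these libraries, so that run does not bear on the calls made here. The check of the targeted transcript was not made, because the tables list genes and not the circle. The 32 gene lists and all members were chosen with earlier results of these data known; the lamina and vigilin list was made around genes already known to be high, and well covered genes with zeros kept, share ratios and list values without single genes were added after the values were seen. Named were the 12 highest and 12 lowest well covered members, the 5 highest and lowest of all members, up to 8 well covered genes at 0 by highest RNA, FLT3, MYBL2 and PTBP1, up to 4 members per list and up to 5 members per direction by smallest p between hairpins. RPS6, MT-CYB as a list member, ATF4, EIF1AX and the examples of histone and replication genes were named after their values were seen. Alternatives were other pseudocounts, coverage limits, averaging, scaling, voom on recovered reads, and leaving out each library.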

Additional observations from a re-analysis of the deposited data

Results flagged for a closer look

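For 11 named members the interaction of hairpin and assay in limma over 8260 genes had an adjusted p under the threshold (2 libraries per group). The members were chosen and ranked on the sh-NC values that form one side of this contrast, so the differences are descriptions and no independent evidence. All are log2, sh-circMYBL2 minus sh-NC. Lower with sh-circMYBL2 were HDLBP (-3.04, SE 0.39), CCT7 (-2.45, SE 0.42), LMNB1 (-2.06, SE 0.31), SCPEP1, a serine carboxypeptidase (-2.01, SE 0.31), RPL37A, of the large ribosomal subunit (-1.91, SE 0.27), and PDLIM1, an actin-linked adaptor (-1.72, SE 0.27). The footprint level of HDLBP was 369 and 272 RPKM in the sh-NC libraries, against 47.2 and 31.8 RPKM in those of sh-circMYBL2. RPL37A had 22 and 46 reads in the sh-NC footprint libraries and 14 and 70 in the deeper ones of sh-circMYBL2. It was the 1 ribosomal protein member called of 62 tested, against 0.783% of all members tested. Of all 75 ribosomal protein genes tested, 1 was called lower and 1 higher. The ratio of RPL37A was -0.36 with sh-NC and -2.49 with sh-circMYBL2, where the medians of the list's members were -2.95 and -3.19.

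Higher with sh-circMYBL2 were ZHX1, a zinc finger and homeobox protein (2.38, SE 0.39), PHF6, a PHD finger protein mutated in leukaemias (2.27, SE 0.35), PLAGL2, a zinc finger transcription factor (2.07, SE 0.33), ELK4, an ETS factor (2.05, SE 0.31), and OPA1, the dynamin-like GTPase of inner mitochondrial membrane fusion (1.71, SE 0.29). Their sh-NC footprint reads were 2 and 8, 1 and 3, 2 and 4, 3 and 7, and 4 and 10. Protein-coding reads made up 42.1% and 29.5% of the reads in the sh-NC footprint libraries and 56.4% and 81.7% in those of sh-circMYBL2, and the part of this in the differences was not tested. None of the 11 was called with a separate spread for each assay.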

How the results depend on the processing

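The median ratio of the well covered members was -1.31. It moved to -1.68 with a limit of 20 expected reads, to -0.99 with 5, and to 0 by construction with all members; without a library it ranged from -1.51 to -1.05. The median of well covered ribosomal protein members was -2.96, and -3.39 at a limit of 20; without a library it ranged from -3.33 to -2.82. Of the 12 highest well covered members, 9 and 10 were kept without footprint library 1 and 2, and of the 12 lowest 10 and 7. For single named genes of the sh-NC ranking, 18 of 217 alternatives moved the ratio by more than the SD between the 2 footprint libraries. Leaving out 1 of the pair can hardly exceed that SD, so this count does not show stability: RPL30 went from -5.47 to -7.41 and -3.65.

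Counts of genes called between hairpins (439, with 32 members) depended on the setting. A pseudocount of 0.1 gave 853 (81 members), one of 5 gave 2 (0 members), genes above 0 in all 8 libraries 0 (0 members, 721 genes at an unadjusted p under 0.05), quantile normalization 112 (11 members), and voom on recovered reads 175 (53 members). Chosen after seeing the data, a mean of at least 10 footprint reads gave 83 (8 members), one of at least 20 gave 0 (0 members, 486 genes at an unadjusted p under 0.05), and a separate spread for each assay 1 (0 members). Without a library, limma called from 0 (any RNA library left out) to 4953 genes (sh-NC footprint library 2 left out), and from 0 to 1934 members. Without sh-circMYBL2 footprint library a or b it called 846 and 738 genes, and without sh-NC footprint library 1 it called 3120. The cause was not tested. A lone library was assumed to vary like the others.

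No paired analysis was possible because the sh-circMYBL2 footprint columns carry no replicate number and the sh-NC ratio comes from no test. Depth limits the low end most: the 12 lowest well covered members rest on 1 to 25 footprint reads in a sh-NC library.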
